A study of Mus musculus with 10 samples.

Results

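The genes of skeletal muscle contraction and metabolism were read in skin of mice that had received skin grafts. They were a list of 52 symbols, of which 51 had a probe set with 1 gene symbol and 1, Xirp2, had none. The members made up 51 of 18193 genes measured, and where several probe sets read a gene the brightest one on average was used. The list was a set of named genes, with no threshold on their values, but it was chosen with earlier results of these data known. It held the proteins of the sarcomere, the calcium release system, the enzymes of muscle glycolysis and a few muscle-type respiratory chain subunits.

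C3H/HeJ mice received grafts of skin from alopecic C3H/HeJ mice, a transfer that brings about the hair loss of alopecia areata (AA) in the recipient. The recipients were 8 to 10 weeks old and without disease at grafting. In 1 group (5 mice) an implanted osmotic pump gave baricitinib, which blocks the kinases JAK1 and JAK2, systemically from the time of grafting. In the other group (5 mice) the pump gave vehicle. Skin was taken at week 12 from all 10 mice, 1 array each. Both groups carried the graft, so neither came from unmanipulated mice. The sex of the mice, the depth of the biopsy and its site relative to the graft are not given in the sources used here. Arrays are named below by group and replicate number, and all values are log2 values per probe set, on which a difference of 1 is a 2-fold difference.

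Mouse skin lies on a thin sheet of striated muscle, the panniculus carnosus, which is made mostly of fast fibers, and a skin sample can take more or less of it. Skeletal muscle contracts when the voltage sensor of the fiber membrane opens calcium channels of the sarcoplasmic reticulum and the released calcium binds troponin on the thin filament. Fast and slow fibers build the same machine from different members of the same gene families, so that a slow troponin or myosin replaces its fast counterpart. The question was whether these genes differed between baricitinib treated and vehicle control skin, and whether fast fiber genes did so apart from slow ones. In RNA from whole skin, fewer muscle fibers and less RNA per fiber cannot be told apart.

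Vehicle replicate 5 stood apart from the other arrays. It correlated with them at r between 0.697 and 0.729, while the other 9 arrays correlated with each other between 0.946 and 0.994. Its median over all genes was 6.62 log2, against 7.79 to 7.96 log2 on the other arrays, and its values had a smaller SD of 2.28 log2, against 2.71 to 2.79 log2. The study's methods left out 1 vehicle array after quality control without a name in the labels, so all 10 arrays were used and differences without vehicle replicate 5 are given where they turned the sign or moved a member by over 1.5 times. The groups were not alike in RNA quality. Gapdh and beta-actin control probe sets read higher at the 3' than at the 5' end, a gap that is wide in degraded RNA, by 1.06 ± 0.08 log2 in the baricitinib and by 2.89 ± 1.40 log2 in the vehicle arrays (SD over 5 arrays each, p = 0.0317 in a two-sided exact permutation test). Vehicle replicate 4 was the exception among the controls with a gap of 1.01 log2, against 1.998 to 4.35 log2 on the other 4 vehicle arrays. Differences with this gap as a covariate are given below. On all arrays but vehicle replicate 4 the gap went with the group, so RNA quality and treatment cannot be fully told apart by that fit. Epidermal keratin and barrier genes, which mark skin, had array medians of 11.73 to 12.77 log2 in baricitinib treated and 12.22 to 13.22 log2 in vehicle control skin.

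The promoters of a few members are shown as examples: Myoz2 of the Z-disc, Mylpf and Tnnc2 of fast fibers, and Tnnc1 and Myh7 of slow fibers. Myoz2 was the one member of 51 whose groups did not overlap, while 3.8% of all genes lay wholly higher and 1.82% wholly lower. In Tnnc1 and Myh7 a single array, baricitinib replicate 2, stood far above the rest. Each line gives the 250 bases before a start annotated in RefSeq, build GRCm38.p6, read 5′ to 3′ on the gene's strand. The whole Mylpf window and the last bases of the Myoz2 window lie inside the RefSeq span of the gene. Capitals mark matches, on either strand, to the E-box CANNTG bound by myogenic factors such as MyoD and myogenin, to the MCAT box CATTCC bound by TEAD factors, and to the MEF2 motif.
Myoz2 (chr3:123034988-123035237, minus strand): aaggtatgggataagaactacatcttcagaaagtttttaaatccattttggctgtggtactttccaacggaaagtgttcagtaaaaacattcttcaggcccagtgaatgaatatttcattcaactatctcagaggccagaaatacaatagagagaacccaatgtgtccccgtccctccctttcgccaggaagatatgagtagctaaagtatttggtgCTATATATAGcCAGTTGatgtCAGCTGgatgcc
Mylpf (chr7:127211358-127211607, plus strand): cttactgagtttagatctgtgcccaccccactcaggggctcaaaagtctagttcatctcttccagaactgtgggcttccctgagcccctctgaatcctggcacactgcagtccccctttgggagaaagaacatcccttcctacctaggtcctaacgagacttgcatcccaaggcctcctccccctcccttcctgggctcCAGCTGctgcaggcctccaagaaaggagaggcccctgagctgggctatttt
Tnnc2 (chr2:164779735-164779984, minus strand): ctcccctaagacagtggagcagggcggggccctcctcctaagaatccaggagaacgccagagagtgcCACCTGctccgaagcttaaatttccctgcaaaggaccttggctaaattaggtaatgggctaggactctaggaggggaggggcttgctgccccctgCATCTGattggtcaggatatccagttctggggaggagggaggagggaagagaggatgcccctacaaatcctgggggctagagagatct
Tnnc1 (chr14:31208062-31208311, plus strand): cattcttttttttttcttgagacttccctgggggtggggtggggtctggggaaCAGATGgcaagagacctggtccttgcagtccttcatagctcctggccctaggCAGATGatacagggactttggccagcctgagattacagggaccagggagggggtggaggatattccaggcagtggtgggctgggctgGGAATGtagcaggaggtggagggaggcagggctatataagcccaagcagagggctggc
Myh7 (chr14:54994627-54994876, minus strand): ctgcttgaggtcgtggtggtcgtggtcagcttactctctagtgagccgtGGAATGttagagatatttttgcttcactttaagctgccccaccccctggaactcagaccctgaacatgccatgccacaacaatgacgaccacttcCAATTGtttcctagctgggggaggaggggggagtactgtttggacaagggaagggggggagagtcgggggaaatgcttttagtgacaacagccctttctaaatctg

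The Myoz2 window held a MEF2 match beside 2 E-boxes, all within the last stretch of the window. The Mylpf window held the single E-box CAGCTG, and the Tnnc2 window held 2 E-boxes of other letters. The slow troponin gene Tnnc1 had 2 E-boxes and an MCAT box, and Myh7 had an E-box and an MCAT box. Over 48 windows of the 38 listed genes with a promoter entry (Xirp2 included), CAGCTG was found in 43.8%, against 13% of all 32851 windows of the same length. CAGCTG is one form of CANNTG, which was found in 83.3% of the members' windows and 66.2% of all windows. The MEF2 motif was in 16.7% of the members' windows and 2.9% of all windows, and the CArG box, which serum response factor binds, in 8.3% of the members' windows and 1.5% of all windows. CATTCC was in 18.8% of the members' windows and 12.6% of all windows. Fast and slow members had similar shares of CAGCTG, in 5 of 11 windows of fast and 4 of 9 windows of slow genes. A match is a run of letters and was not shown to be a bound site.

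Most muscle genes read higher in baricitinib treated skin, but none passed the test across all probe sets. The median difference of the 51 members, baricitinib minus vehicle, was 0.71 log2, whereas that of all 18193 genes was 0.005 log2. The difference was positive in 41 of 51 members, against 50.3% of all genes. With limma and Benjamini-Hochberg adjustment over 45037 probe sets, 0 of 51 members had an adjusted p under 0.05, and 0% of all probe sets did. The smallest adjusted p of a member was 0.221, for Myoz2. At an unadjusted p under 0.05, 17 of 51 members were higher and 0 were lower in baricitinib treated skin, while 9.81% of all genes were higher and 6.22% lower. Without vehicle replicate 5 the median difference of the members was 0.64 log2 (all genes, -0.06 log2), 44 of 51 were positive (42.8% of all genes) and again 0 passed. In that set 18 members were higher and 1, Casq2, lower at an unadjusted p under 0.05, against 13.3% and 16.1% of all genes.

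**Figure D1:**
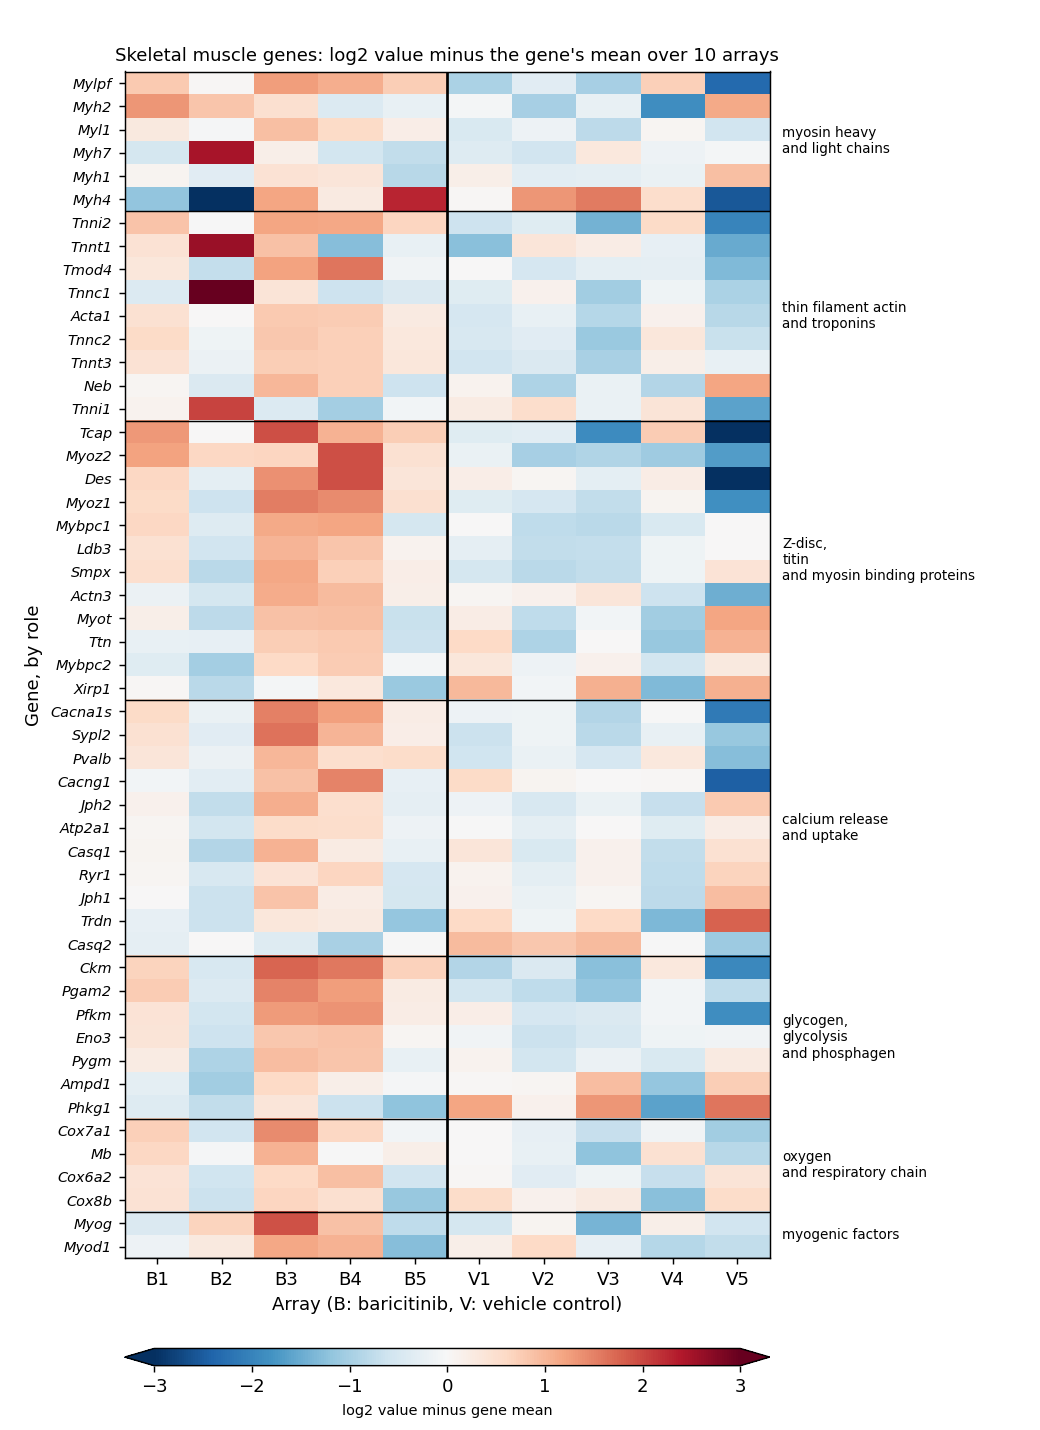
Heat map of the 51 muscle genes (rows, by role) on the 10 arrays (columns, baricitinib treated B1 to B5, then vehicle control V1 to V5). Color is the log2 value less that gene's average on the 10 arrays, cut at 3 log2 units either way. B3 holds the highest value of 25 genes, V5 the lowest of 18 and the highest of 9. B2 differs from the other baricitinib arrays in its dark Myh7, Tnnc1, Tnni1 and Tnnt1. Its fast fiber genes other than Myh2 are pale or blue, and the slow gene Mybpc1 lies below its average there.

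The arrays of a group differed widely. With each gene centred on its mean over arrays, the members' medians were 0.34, -0.41, 0.90, 0.73 and -0.08 log2 in baricitinib treated skin (replicates 1 to 5). In vehicle control skin they were 0.007, -0.30, -0.29, -0.16 and -0.58 log2. Baricitinib replicates 2 and 5 thus lay within the range of the controls. Baricitinib replicate 3 had the highest value of 25 members and baricitinib replicate 4 of 9, whereas baricitinib replicate 2 had the highest value of 4 and the lowest of 7. Vehicle replicate 5 had the lowest value of 18 members and the highest of 9, vehicle replicate 4 the lowest of 11 and vehicle replicate 3 the lowest of 9. Vehicle replicate 4, whose 3'/5' gap lay within that of the baricitinib arrays, lay inside the baricitinib range for 37 of 51 members, below it for 14 and above it for 0. Of the other controls, vehicle replicate 1 lay inside that range for 35 members, vehicle replicate 2 for 33, vehicle replicate 3 for 26 and vehicle replicate 5 for 16.

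Among the myosins, which form the thick filament and its motor, the 2 light chains had an unadjusted p under 0.05 in limma and the 4 heavy chains did not. At that level 9.81% of all genes were higher and 6.22% lower. The median difference of the 6 myosin genes was 0.56 log2, and 4 were positive. Mylpf, the regulatory light chain of fast fibers, read 12.95, 12.21, 13.41, 13.26 and 12.91 log2 in baricitinib treated skin (replicates 1 to 5, the order kept below), against 11.22, 11.83, 11.17, 12.87 and 9.85 log2 in vehicle control skin. Vehicle replicate 4 alone reached the baricitinib values, and the difference was 1.56 ± 0.49 log2 (SE, limma adjusted p = 0.242). Myl1, the alkali light chain of fast fibers, differed by 0.77 ± 0.23 log2 (SE, limma adjusted p = 0.234) and overlapped at 1 baricitinib array, replicate 2. Myh2, the heavy chain of type 2A fibers, read 12.07, 11.59, 11.23, 10.35 and 10.53 log2 under baricitinib and 10.70, 9.77, 10.53, 8.90 and 11.89 log2 under vehicle. Its highest control was vehicle replicate 5, and the difference of 0.80 ± 0.54 log2 (SE, limma adjusted p = 0.451) became 1.18 log2 without that array. Myh1, the heavy chain of type 2X fibers, read 12.998, 12.60, 13.37, 13.30 and 12.10 log2 under baricitinib and 13.10, 12.61, 12.63, 12.73 and 13.84 log2 under vehicle, and the groups overlapped throughout (difference -0.11 ± 0.32 log2, SE, and 0.11 log2 without vehicle replicate 5). Myh4, the heavy chain of the fastest, type 2B fibers, had the widest spread of the family, with 9.07, 6.85, 11.44, 10.54 and 12.55 log2 in baricitinib treated and 10.30, 11.58, 11.81, 10.79 and 7.71 log2 in vehicle control skin. Its low arrays were baricitinib replicate 2 and vehicle replicate 5, so the difference of -0.35 ± 1.10 log2 (SE) was -1.03 log2 without vehicle replicate 5 and 0.46 log2 without baricitinib replicate 2. Myh7, the heavy chain of slow fibers and of the heart, was the 1 member with a mean under 6 log2 and read 5.39, 8.38, 6.09, 5.36 and 5.18 log2 under baricitinib and 5.52, 5.34, 6.23, 5.75 and 5.85 log2 under vehicle. Only baricitinib replicate 2 stood out, and Myh7 differed by 0.34 ± 0.56 log2 (SE).

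The thin filament genes had positive differences in 9 of 9 members, with a median of 0.92 log2. Without vehicle replicate 5, 8 of 9 were positive, and with the RNA quality covariate the median was 0.40 log2. Acta1, the skeletal muscle actin, read 12.92, 12.47, 13.24, 13.23 and 12.73 log2 in baricitinib treated skin, against 11.94, 12.23, 11.61, 12.58 and 11.63 log2 in vehicle control skin. The groups touched only where vehicle replicate 4 passed baricitinib replicate 2, and the difference was 0.92 ± 0.24 log2 (SE, limma adjusted p = 0.224). The inhibitory troponin of fast fibers, Tnni2, read 13.33, 12.47, 13.67, 13.66 and 13.13 log2 under baricitinib and 11.86, 12.12, 11.08, 13.06 and 10.52 log2 under vehicle, again with vehicle replicate 4 as the highest control. Tnni2 differed by 1.53 ± 0.45 log2 (SE, limma adjusted p = 0.233). A further Tnni2 probe set, with a mean of 11.02 log2, differed by 0.28 log2, so the size of the difference rests on the choice of probe set. Tnnc2, the calcium-binding troponin of fast fibers, read 13.44, 12.75, 13.69, 13.59 and 13.19 log2 under baricitinib and 12.40, 12.52, 11.75, 13.20 and 12.20 log2 under vehicle, a difference of 0.92 ± 0.28 log2 (SE, limma adjusted p = 0.238). Tnnt3, the fast troponin that holds tropomyosin, read 13.31, 12.72, 13.62, 13.60 and 13.21 log2 under baricitinib and 12.31, 12.44, 11.90, 13.05 and 12.67 log2 under vehicle, a difference of 0.82 ± 0.25 log2 (SE, limma adjusted p = 0.238). In all 3 fast troponins baricitinib replicate 2 was the lowest array of its group and vehicle replicate 4 the highest of the controls.

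In the slow troponins, 1 baricitinib array was far above the rest. Tnnc1, the calcium-binding troponin of slow and cardiac muscle, read 6.01, 9.85, 6.81, 5.79 and 5.99 log2 in baricitinib treated and 6.06, 6.55, 5.38, 6.29 and 5.47 log2 in vehicle control skin. Tnni1, the slow inhibitory troponin, read 6.19, 8.10, 5.68, 5.06 and 6.003 log2 under baricitinib and 6.34, 6.61, 5.88, 6.47 and 4.46 log2 under vehicle. Tnnt1, the slow tropomyosin-binding troponin, read 8.08, 10.25, 8.53, 6.37 and 7.43 log2 under baricitinib and 6.40, 8.02, 7.88, 7.41 and 6.14 log2 under vehicle. Baricitinib replicate 2 was the highest of all 10 arrays in each of the 3 genes and in Myh7, and it was also the array with the lowest Myh4. The other 4 baricitinib arrays lay among the controls in Tnni1, and the next highest Tnnt1 value was 8.53 log2, in baricitinib replicate 3. The differences of 0.94 ± 0.71 log2 for Tnnc1, 0.25 ± 0.58 log2 for Tnni1 and 0.96 ± 0.67 log2 for Tnnt1 (SE) had limma adjusted p-values of 0.482, 0.798 and 0.46. Without baricitinib replicate 2 the Tnnc1 difference was 0.20 log2. Without vehicle replicate 5, the lowest Tnni1 array, the Tnni1 difference turned to -0.12 log2. Of the remaining thin filament genes, Tmod4, a capping protein of the filament's pointed end, differed by 0.94 ± 0.44 log2 (SE), and Neb, the giant nebulin along the filament, by 0.29 ± 0.46 log2 (SE), or by 0.62 log2 without vehicle replicate 5.

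**Figure D2:**
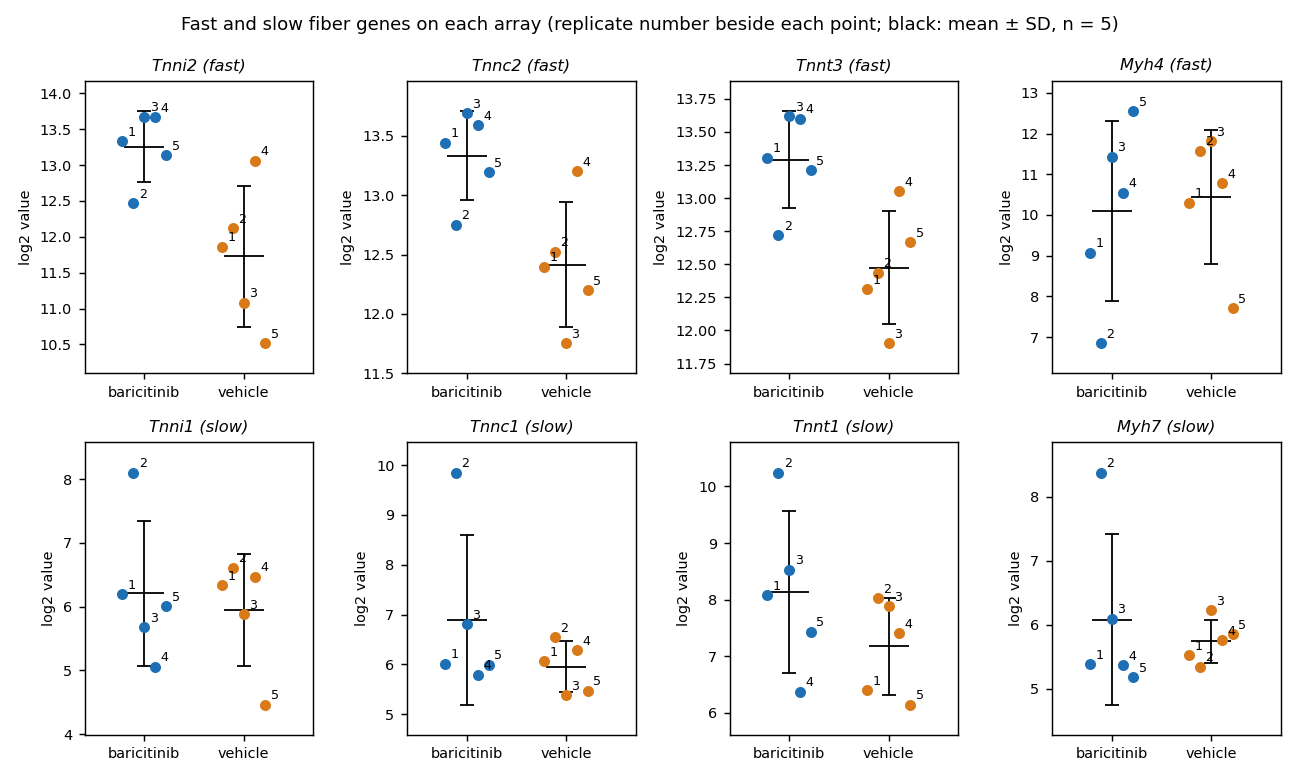
Log2 values (y axis) of 4 fast fiber genes (upper row) and their slow counterparts (lower row) in baricitinib treated and vehicle control skin, 1 point per array with its replicate number, and black bars for mean ± SD (n = 5). Baricitinib replicate 2 is highest in all 4 slow genes, at 8.38 log2 in Myh7 and 9.85 log2 in Tnnc1, and lowest of its group in all 4 fast genes.

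The Z-disc and filament-binding proteins anchor thin filaments and set filament length and spacing, and 10 of 12 had positive differences (median 0.73 log2). Myoz2, calsarcin-1, which ties calcineurin to the Z-disc mainly in slow and cardiac muscle, read 9.03, 8.45, 8.47, 9.77 and 8.28 log2 in baricitinib treated skin, against 7.62, 6.83, 6.93, 6.76 and 6.14 log2 in vehicle control skin. Every baricitinib array was above every control. It was the only member of which that was so with all arrays, while 3.8% of all genes lay wholly higher and 1.82% wholly lower (4.53% and 4.73% without vehicle replicate 5, where Myoz2 was again the only member). The difference was 1.94 ± 0.34 log2 (SE, limma adjusted p = 0.221), and it was 1.76 log2 without vehicle replicate 5 (limma adjusted p = 0.0733). Its fast counterpart Myoz1 differed by 1.34 ± 0.46 log2 (SE, limma adjusted p = 0.264), with ranges of 8.73 to 10.90 log2 under baricitinib and 7.54 to 9.45 log2 under vehicle. Tcap, telethonin, which joins titin to the Z-disc, had the largest difference of the list at 2.02 ± 0.69 log2 (SE, limma adjusted p = 0.264). Its vehicle arrays ran from 7.18 to 11.17 log2 and 2 of them, replicates 3 and 5, were below all baricitinib arrays by over 1 log2 unit. Des, desmin, the intermediate filament between myofibrils, read 10.78, 9.87, 11.54, 12.11 and 10.54 log2 under baricitinib and 10.36, 10.24, 9.88, 10.40 and 5.98 log2 under vehicle. Vehicle replicate 5 was far below the rest, and the Des difference of 1.60 ± 0.84 log2 (SE) was 0.75 log2 without it. Actn3, the alpha-actinin of fast fibers, read 9.56, 9.21, 10.87, 10.69 and 9.92 log2 under baricitinib and 9.82, 9.88, 10.11, 9.13 and 8.29 log2 under vehicle, with overlapping groups (difference 0.60 ± 0.42 log2, SE, and 0.32 log2 without vehicle replicate 5). Titin, Ttn, the spring between the Z-disc and the thick filament, read 10.71, 10.68, 11.69, 11.72 and 10.30 log2 under baricitinib and 11.53, 10.02, 10.96, 9.81 and 11.99 log2 under vehicle, and the highest of all was vehicle replicate 5. The Ttn difference was 0.16 ± 0.47 log2 (SE) and 0.44 log2 without that array. Other Ttn probe sets with a mean above 6 log2 differed by 0.38, -0.29, 0.95 and 0.50 log2. Myosin binding protein C differed by 0.81 ± 0.38 log2 in its slow form Mybpc1 and by -0.02 ± 0.34 log2 in its fast form Mybpc2 (SE), Ldb3 by 0.74 ± 0.31 log2, Smpx by 0.71 ± 0.37 log2 and Myot by 0.20 ± 0.49 log2, and the actin-binding repeat protein Xirp1 by -0.67 ± 0.49 log2. Without vehicle replicate 5 the differences were 0.05 log2 for Mybpc2 and 0.52 log2 for Myot. Dimmer Mybpc1 probe sets, with means of 7.30 and 6.46 log2, differed by 1.39 and 1.96 log2 with all arrays.

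**Figure D3:**
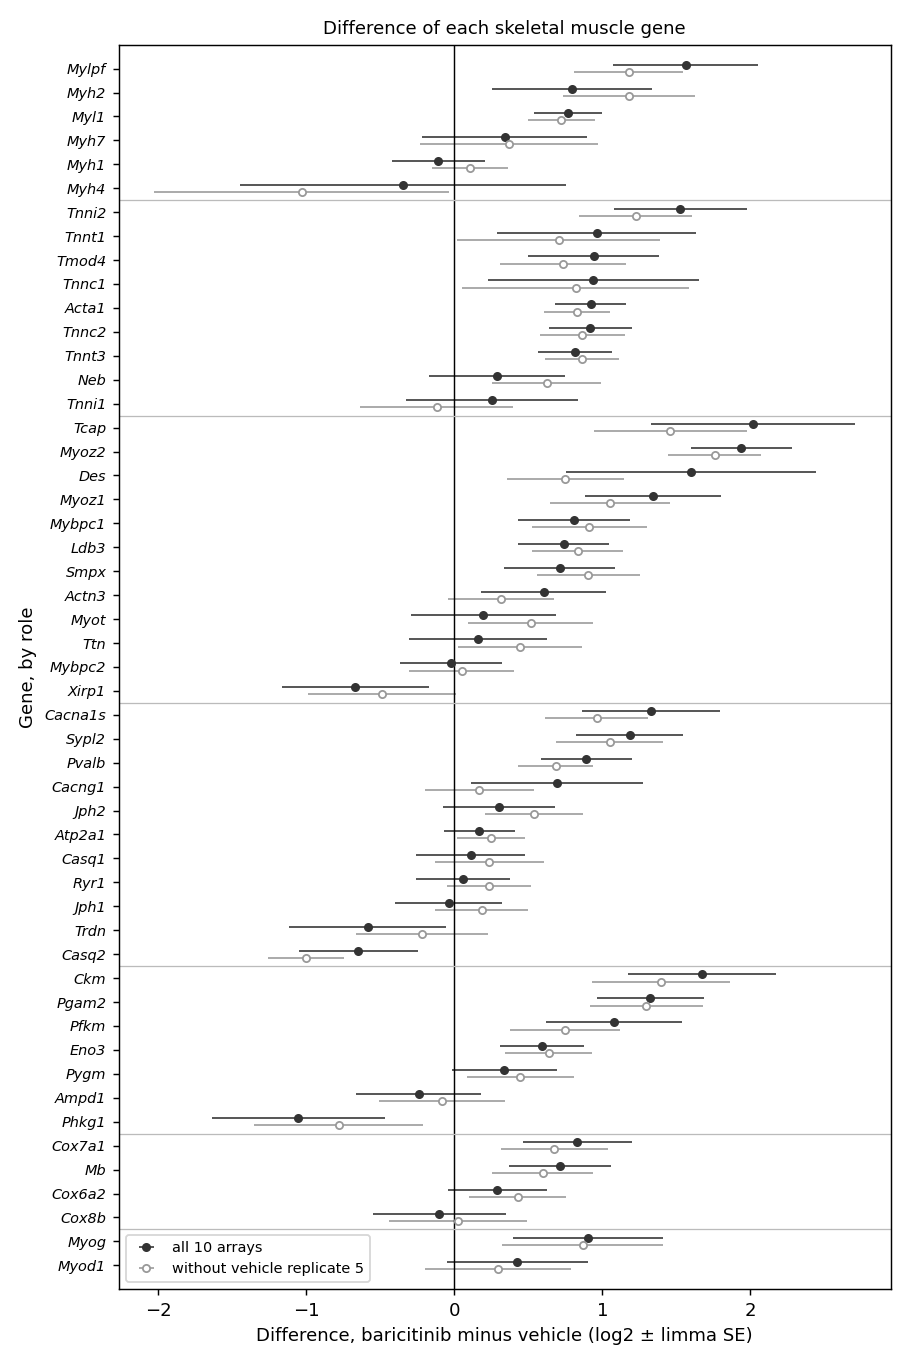
Difference of each of the 51 muscle genes, baricitinib minus vehicle (x axis, log2, with the limma SE as bars), by role. Filled points use all 10 arrays and open points leave out vehicle replicate 5. Positive differences are found in 41 of 51 genes with all arrays and 44 of 51 without that array, from Tcap at 2.02 log2 to Phkg1 at -1.05 log2 with all arrays.

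The calcium system had a median difference of 0.17 log2 and positive values in 8 of 11 genes. That median was 0.59 log2 with the RNA quality covariate, 0.35 log2 without baricitinib replicate 2 and 0.10 log2 without vehicle replicate 4. Cacna1s, the voltage sensor of the fiber membrane, differed by 1.33 ± 0.46 log2 (SE, limma adjusted p = 0.267), whereas Ryr1, the release channel it opens, differed by 0.06 ± 0.32 log2 (SE). Ryr1 was read by a further probe set at 1.23 log2, so its value rests on the choice of probe set, and the value used turned negative under cyclic loess and was 0.23 log2 without vehicle replicate 5. Atp2a1, the calcium pump SERCA1 of fast fibers, read 12.78, 12.17, 13.26, 13.25 and 12.55 log2 in baricitinib treated skin, against 12.71, 12.42, 12.73, 12.36 and 12.94 log2 in vehicle control skin. These groups overlapped fully, with a difference of 0.17 ± 0.24 log2 (SE). Pvalb, parvalbumin, the soluble calcium buffer of fast fibers, read 12.82, 12.26, 13.44, 12.95 and 12.995 log2 under baricitinib and 11.85, 12.26, 11.95, 12.78 and 11.18 log2 under vehicle. Pvalb differed by 0.89 ± 0.31 log2 (SE, limma adjusted p = 0.264). The calcium store proteins of the reticulum took opposite signs on the deposited scale, and Casq1 turned negative under cyclic loess or quantile normalization. Casq1, the fast calsequestrin, read 9.64, 8.68, 10.62, 9.82 and 9.33 log2 under baricitinib and 9.92, 9.10, 9.69, 8.82 and 10.01 log2 under vehicle, a difference of 0.11 ± 0.37 log2 (SE), or 0.24 log2 without vehicle replicate 5. Casq2, the slow and cardiac calsequestrin, read 7.89, 8.18, 7.76, 7.19 and 8.15 log2 under baricitinib and 9.11, 8.96, 9.12, 8.15 and 7.07 log2 under vehicle. Vehicle replicates 1 to 3 were above every baricitinib array, vehicle replicate 4 was within their range and vehicle replicate 5 below it. The Casq2 difference of -0.65 ± 0.40 log2 (SE, limma adjusted p = 0.428) was -1.0 log2 without vehicle replicate 5 (limma adjusted p = 0.08) and it was the only member lower at an unadjusted p under 0.05 in that set. Sypl2, a protein of the triad membrane, differed by 1.19 ± 0.36 log2, the channel subunit Cacng1 by 0.69 ± 0.58 log2, the junctophilins Jph1 and Jph2 by -0.04 and 0.30 log2, and Trdn, triadin, by -0.58 ± 0.53 log2 (SE). Without vehicle replicate 5 the differences were 0.17 log2 for Cacng1, 0.19 log2 for Jph1, 0.54 log2 for Jph2 and -0.22 log2 for Trdn.

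Of the 7 genes of glycogen, glycolysis and phosphagen metabolism, 5 had positive differences (median 0.59 log2), and Ckm, Pgam2 and Pfkm had an unadjusted p under 0.05 in limma. Over all genes, 9.81% were higher and 6.22% lower at that level. Ckm, muscle creatine kinase, which restores ATP from creatine phosphate, read 9.54, 8.39, 10.62, 10.45 and 9.57 log2 in baricitinib treated skin, against 7.99, 8.45, 7.63, 9.19 and 6.94 log2 in vehicle control skin. Of the controls only vehicle replicates 2 and 4 passed the lowest baricitinib array, replicate 2. The difference was 1.67 ± 0.50 log2 (SE, limma adjusted p = 0.236), while a dimmer Ckm probe set differed by -0.13 log2. Pgam2, the muscle phosphoglycerate mutase, differed by 1.32 ± 0.36 log2 (SE, limma adjusted p = 0.227) and Pfkm, the muscle phosphofructokinase, by 1.08 ± 0.46 log2 (SE, limma adjusted p = 0.321). Eno3, the muscle enolase, read 12.39, 11.37, 12.81, 12.86 and 12.05 log2 under baricitinib and 11.88, 11.36, 11.52, 11.86 and 11.89 log2 under vehicle, a difference of 0.59 ± 0.29 log2 (SE). Pygm, the muscle glycogen phosphorylase, read 10.38, 9.19, 11.05, 10.95 and 9.91 log2 under baricitinib and 10.22, 9.57, 9.94, 9.66 and 10.39 log2 under vehicle and differed by 0.34 ± 0.35 log2 (SE). Both enzymes overlapped between groups, with baricitinib replicate 2 the lowest of all arrays for Pygm. Phkg1, the catalytic subunit of the kinase that activates glycogen phosphorylase, had the lowest difference of the list at -1.05 ± 0.58 log2 (SE, limma adjusted p = 0.396), and Ampd1, the muscle AMP deaminase, differed by -0.24 ± 0.42 log2 (SE), or by -0.08 log2 without vehicle replicate 5.

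Of the oxygen and respiratory chain genes, Mb, myoglobin, read 10.92, 10.25, 11.35, 10.28 and 10.46 log2 in baricitinib treated and 10.31, 10.07, 9.10, 10.75 and 9.47 log2 in vehicle control skin, a difference of 0.71 ± 0.34 log2 (SE). Cox8b, a heart and muscle form of a cytochrome oxidase subunit, read 10.47, 9.39, 10.70, 10.52 and 8.90 log2 under baricitinib and 10.60, 10.17, 10.32, 8.79 and 10.60 log2 under vehicle. It overlapped between groups and differed by -0.10 ± 0.45 log2 (SE), or by 0.03 log2 without vehicle replicate 5. The muscle subunits Cox7a1 and Cox6a2 differed by 0.83 ± 0.37 log2 and 0.29 ± 0.34 log2 (SE), while a dimmer Cox6a2 probe set differed by -0.20 log2. The myogenic factors, which drive muscle gene expression, were variable. Myog, myogenin, read 6.02, 7.13, 8.37, 7.34 and 5.71 log2 under baricitinib and 5.95, 6.55, 5.06, 6.64 and 5.89 log2 under vehicle, a difference of 0.90 ± 0.51 log2 (SE). Myod1 read 7.40, 7.86, 8.71, 8.62 and 6.29 log2 under baricitinib and 7.73, 8.16, 7.32, 6.71 and 6.83 log2 under vehicle, a difference of 0.43 ± 0.48 log2 (SE). In both genes baricitinib replicate 3 was the highest array and baricitinib replicate 5 the lowest of its group.

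Fast and slow fiber genes had nearly the same median difference with all arrays, but the slow median rested on 1 array. The 14 fast fiber members had a median difference of 0.78 log2, with 11 positive, and the 7 slow fiber members one of 0.81 log2, with 6 positive. The fast minus slow median was -0.02 log2 with all arrays, 0.001 log2 without vehicle replicate 5 and 0.64 log2 without baricitinib replicate 2. Without that baricitinib array the slow median was 0.20 log2 and the fast median 0.84 log2. The slow median of 0.81 log2 with all arrays was the difference of Mybpc1. Myh7, Tnnc1, Tnni1 and Tnnt1 alone had a median of 0.64 log2 with all arrays and -0.01 log2 without baricitinib replicate 2. Per array, the median of fast less that of slow genes, each centred on its own mean over arrays, was 0.22, -2.28, 0.56, 1.28 and 0.47 log2 in baricitinib treated skin, against -0.01, -0.46, -0.20, 0.23 and 0.47 log2 in vehicle control skin. Baricitinib replicate 2 was thus the one array of its group tilted to slow genes by this measure, and the other 4 were at 0.22 log2 or above. The tilt did not hold for every slow member: Mybpc1 read 10.89 log2 in that array, within a baricitinib range of 10.74 to 12.45 log2. No p is given for these medians because they are scores over a chosen list.

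Leaving out a single array moved the number of members whose groups did not overlap, from 1 with all arrays. With baricitinib replicate 2 left out, 16 of 51 members lay wholly higher in baricitinib treated skin, against 6.61% of all genes wholly higher and 3.51% wholly lower, and they included Mylpf, Tnni2, Tnnt3, Acta1, Pvalb and Ckm. With vehicle replicate 4 left out, 10 of 51 did, against 11.5% of all genes wholly higher and 6.95% wholly lower, and 2 members, Tnni2 and Myoz2, passed at limma adjusted p-values of 0.0480 and 0.0455 (1.31% of all probe sets passed as higher and 0.568% as lower). Vehicle replicate 4 was the control with the narrow 3'/5' gap, and on the other arrays the gap went with the group. A fit with that gap as a covariate thus separates RNA quality from treatment only in part. With RNA quality as a covariate in limma, the median difference of the members was 0.55 log2, that of fast members 0.33 log2 and that of slow members 0.69 log2, and 0 members passed. By role, the medians with that covariate were 0.30 log2 for the myosins, 0.40 log2 for the thin filament, 0.62 log2 for the Z-disc group, 0.59 log2 for the calcium system, 0.58 log2 for glycolysis and phosphagen, 0.51 log2 for the respiratory group and 0.26 log2 for the myogenic factors. When limma weighted the arrays by quality, 16 members passed, 15 higher and Casq2 lower, against 10.9% of all probe sets higher and 10.6% lower. Myh2 was among the 15, at 1.37 log2. The weights were uneven: 5.43 for baricitinib replicate 1, 0.50 for vehicle replicate 4 and 0.03 for vehicle replicate 5. The remaining arrays had weights of 1.09 to 2.05. With vehicle replicate 5 left out and the other arrays weighted alike, 0 members passed.

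Members of short and of long gene span moved in opposite directions when vehicle replicate 5 was left out. The 26 members with a span up to 16694 bases in RefSeq GRCm38.p6 had a median difference of 0.91 log2, and vehicle replicate 5 was the lowest array for 13 of them and the highest for 2. The 25 longer members had a median difference of 0.29 log2, and there vehicle replicate 5 was lowest for 5 and highest for 7, among them Ttn, Neb and Ryr1. Without that array the medians were 0.72 log2 for shorter and 0.52 log2 for longer members. All genes, split at the same span, had medians of -0.04 log2 for shorter and 0.04 log2 for longer genes with all arrays, and of -0.08 log2 for shorter and -0.04 log2 for longer genes without vehicle replicate 5.

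Other genes of skeletal muscle outside the list read higher too. Of 49 measured of 54 listed, 37 had a positive difference (50.3% of all genes) and the median was 0.40 log2. At an unadjusted p under 0.05, 14 were higher and 0 lower (9.81% and 6.22% of all genes), with 0 past adjustment in limma. Fabp3, the heart and muscle fatty acid binding protein, read 11.03, 9.44, 11.68, 12.73 and 10.84 log2 in baricitinib treated and 9.10, 8.88, 7.60, 9.79 and 7.83 log2 in vehicle control skin. Its difference of 2.50 ± 0.61 log2 (SE, limma adjusted p = 0.223) exceeded that of every member. Tmem38a, a potassium channel of the reticulum, differed by 1.86 ± 0.48 log2 and Csrp3, the muscle LIM protein, by 1.39 ± 0.37 log2 (SE).

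Markers of adipocytes, smooth muscle and fibroblasts also read higher. All 8 measured of 10 adipocyte markers had positive differences (median 1.04 log2), with array medians of 9.67 to 11.55 log2 in baricitinib treated and 8.61 to 9.55 log2 in vehicle control skin. Adipoq, adiponectin, read 11.69, 11.34, 12.02, 11.51 and 9.83 log2 under baricitinib and 8.60, 9.89, 10.16, 9.66 and 9.93 log2 under vehicle, and baricitinib replicate 5 was within the range of the controls. Smooth muscle markers were positive in 9 of 9 (median 0.72 log2, array medians of 9.26 to 10.58 log2 under baricitinib and 7.36 to 9.75 log2 under vehicle). Fibroblast markers were positive in 5 of 6 (median 0.33 log2, array medians of 12.01 to 12.68 log2 under baricitinib and 11.42 to 11.94 log2 under vehicle), epidermal markers in 1 of 6 (median -0.42 log2) and leukocyte markers in 2 of 6 (median -0.47 log2, array medians of 9.24 to 10.58 log2 under baricitinib and 8.31 to 10.66 log2 under vehicle). Vehicle replicate 5 gave the lowest vehicle median of the smooth muscle and of the leukocyte markers. The leukocyte medians of the other vehicle arrays were 10.23 to 10.66 log2. Without vehicle replicate 5 the median difference was 0.57 log2 for smooth muscle markers, with 9 of 9 positive. For leukocyte markers it was -0.69 log2, with 1 of 6 positive. Nerve sheath markers were positive in 2 of 3 measured of 5 (median 0.44 log2, and 0.10 log2 without vehicle replicate 4). The part of these tissues, or of biopsy depth, in the muscle differences was not tested. Cardiac markers were positive in 5 of 7 (median 0.22 log2, and 0.04 log2 without vehicle replicate 5). Myh6, the cardiac alpha heavy chain, lay at 3.77 to 4.27 log2 under baricitinib and 3.74 to 4.07 log2 under vehicle, whereas Tnnt2, the cardiac troponin T, lay at 7.97 to 9.48 log2 under baricitinib and 6.93 to 8.63 log2 under vehicle (difference 0.90 ± 0.38 log2, SE). The natriuretic peptide gene Nppb differed by -1.07 ± 0.65 log2 and the atrial light chain Myl7 by -0.43 ± 0.16 log2 (SE). Brown adipocyte markers were positive in 2 of 5 measured of 6 (median -0.07 log2, and 0.43 log2 with 3 positive without vehicle replicate 5). Ucp1, which uncouples respiration, lay at 4.48 to 4.97 log2 under baricitinib and 4.68 to 5.54 log2 under vehicle. Cidea, a lipid droplet protein, lay at 9.12 to 10.72 log2 under baricitinib and 3.22 to 9.47 log2 under vehicle, and its difference of 2.44 ± 1.06 log2 (SE) was 1.37 log2 without vehicle replicate 5. Elovl3, a fatty acid elongase, differed by 1.88 ± 0.78 log2 (SE) and by 1.20 log2 without that array.

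**Figure D4:**
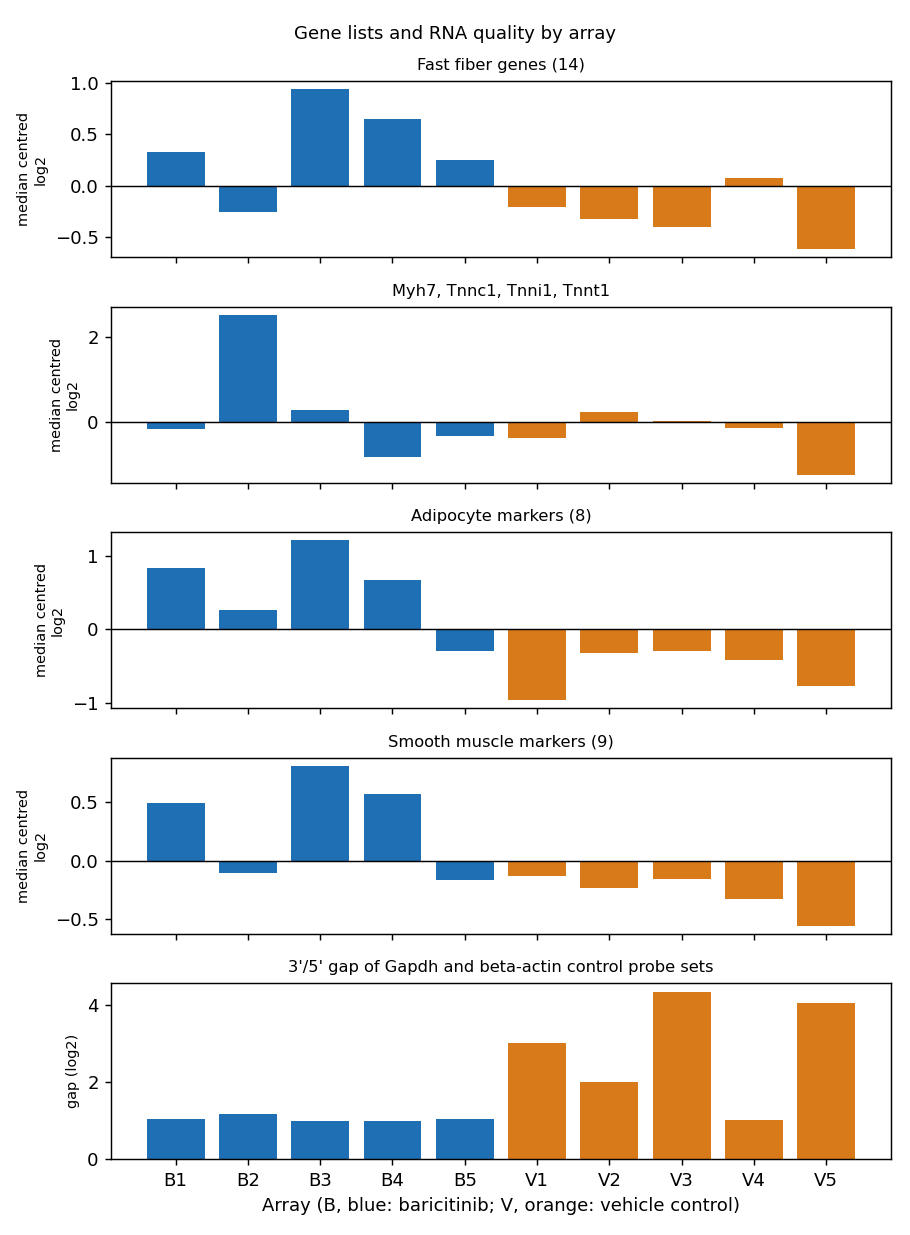
Array medians (y axis, log2 minus each gene's mean over arrays) of the 14 fast fiber genes, of 4 slow genes, of adipocyte and of smooth muscle markers, and the 3'/5' gap (log2) of the control probe sets, for B1 to B5 (baricitinib, blue) and V1 to V5 (vehicle, orange). The fast fiber, adipocyte and smooth muscle medians are all highest in B3, the slow gene median in B2, and the gap is wide in all vehicle arrays but V4.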

How the data were processed

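Flash-frozen skin gave RNA that NuGen kits amplified and biotinylated for Affymetrix mouse whole-genome arrays. The authors deposited log2 values per probe set, made with RMA (version not given in the sources used here), which gives the arrays a common distribution of probe intensities before probes are summarised, so that array means differ little. Of 45101 probe sets, 64 controls were left out. A gene was read by its brightest probe set with 1 symbol in the platform annotation. The comparison used limma (3.58.1, under R 4.3.3) with lmFit, eBayes and a two-sided test, its p-values adjusted by Benjamini-Hochberg over 45037 probe sets, and was checked on simulated data. The number of arrays limits the precision. Medians and counts over lists had no test. The members and lists were chosen with earlier results of these data known. Values per array are given for myosin heavy chains, troponins and selected members by a written rule. Replicate numbers did not pair samples (correlation of deviations from -0.23 to 0.09). Alternatives were each array left out, other normalizations, probe set choices, array weights, an RNA quality covariate and a replicate block. Motifs were searched in RefSeq promoter windows of 250 bases, where 38 of the 52 listed genes matched by symbol. The study's methods name 5 mice per group and the labels hold 5 arrays per group, so each array was taken as 1 mouse.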

Additional observations from a re-analysis of the deposited data

Results flagged for a closer look

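In groups of 5 arrays, a value was singled out when its gap to the nearest other array exceeded 0.71 of the group's range (Dixon's critical value). Of 108 groups examined, 6 were singled out, and chance gives about 1 in 20. The slow myosin Myh7 was at 8.38 log2 in baricitinib replicate 2, against 5.18 to 6.09 log2 on the other baricitinib arrays. The slow troponin Tnnc1 was at 9.85 log2 in the same array, against 5.79 to 6.81 log2 on the others of its group. Desmin, Des, was at 5.98 log2 in vehicle replicate 5, against 9.88 to 10.40 log2 on the other vehicle arrays. The channel subunit Cacng1 was at 4.82 log2 in vehicle replicate 5, against 7.29 to 7.85 log2. The respiratory subunit Cox8b was at 8.79 log2 in vehicle replicate 4, against 10.17 to 10.60 log2 on the other vehicle arrays. The median of the 7 slow fiber members, each centred on its mean over arrays, was -1.09 log2 in vehicle replicate 5, against -0.20 to 0.13 log2 on the other vehicle arrays.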

How the results depend on the processing

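The number of arrays limits the precision, and 1 array decided several values. With 1 array left out, the members past adjustment in limma numbered 0 to 2 (2 without vehicle replicate 4), and those whose groups did not overlap 1 to 16 (16 without baricitinib replicate 2, 10 without vehicle replicate 4). The median difference was 0.54 to 0.81 log2 for the members, 0.69 to 0.84 log2 for fast and 0.20 to 1.04 log2 for slow members, and fast minus slow was -0.21 to 0.64 log2. Array quality weights, by far the highest for baricitinib replicate 1, gave 16 members past adjustment. With the RNA quality covariate the fast median was 0.33 log2. With the replicate block, with trend and robust eBayes and with 1 probe set per gene, 0 members passed. Other normalizations, probe set choices and a minimum of 6 log2 moved no count by over 1.5 times.

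The sign of 40 of 51 members did not depend on any single array. For the other 11, the lowest and highest differences with 1 array left out were -0.14 and 0.35 log2 for Casq1, -0.43 and 0.17 for Cox8b, -0.25 and 0.19 for Jph1, -0.21 and 0.23 for Mybpc2, -0.23 and 0.11 for Myh1, -1.03 and 0.46 for Myh4, -0.23 and 0.57 for Myh7, -0.038 and 0.52 for Myot, -0.13 and 0.23 for Ryr1, -0.22 and 0.54 for Tnni1 and -0.10 and 0.44 for Ttn. Array weights turned the sign of Myh1 (0.16 log2), Tnni1 (-0.18), Jph1 (0.11) and Myod1 (-0.072). Cyclic loess turned that of Myot (-0.031 log2), Ttn (-0.045), Casq1 (-0.16), Jph2 (-0.019) and Ryr1 (-0.10), and quantile normalization that of Casq1 (-0.013). The cause was not tested.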

Other observations

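Genes of muscle repair and loss had small or negative median differences, baricitinib minus vehicle. Of 10 measured progenitor and differentiation genes, 7 had positive differences with a median of 0.10 log2, and 0 had an unadjusted limma p under 0.05 (9.81% of all genes were higher and 6.22% lower at that level). The largest were Mef2a, a partner of the myogenic factors, at 0.44 ± 0.22 log2 (SE), Myf5, an early myogenic factor, at -0.39 ± 0.46 log2 and Mef2c at 0.38 ± 0.27 log2. Without vehicle replicate 5 they differed by 0.32, -0.09 and 0.51 log2. Genes of immature or denervated fibers and of the neuromuscular junction had 4 of 13 positive differences (median -0.22 log2), and 2 of 13 were lower at an unadjusted limma p under 0.05, against 6.22% of all genes. The acetylcholine receptor subunits Chrnd and Chrne differed by -0.45 ± 0.23 and -0.43 ± 0.18 log2, and Rapsn, which clusters the receptor, by -0.37 ± 0.16 log2 (SE), each between 4 and 7 log2 on all arrays. Without vehicle replicate 5 the differences were -0.26 log2 for Chrnd, -0.33 log2 for Chrne and -0.34 log2 for Rapsn.

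Of 8 measured ubiquitin ligases and FOXO targets of muscle atrophy, 2 had positive differences (median -0.21 log2, and 0.13 log2 with the RNA quality covariate). Klf15, a glucocorticoid target in muscle, read 9.27, 8.45, 9.85, 9.59 and 8.002 log2 in baricitinib treated skin, against 7.94, 7.63, 8.09, 7.91 and 8.28 log2 in vehicle control skin. Its difference was 1.06 ± 0.34 log2 (SE, limma adjusted p = 0.249). Trim63, the ligase MuRF1, read 7.47, 7.65, 8.35, 9.79 and 6.97 log2 under baricitinib and 8.08, 7.11, 7.80, 7.21 and 5.01 log2 under vehicle. These groups overlapped, and the difference of 1.01 ± 0.65 log2 (SE, limma adjusted p = 0.440) was 0.50 log2 without vehicle replicate 5. Foxo1 differed by -0.41 ± 0.27 log2 (SE). No difference between these lists and the contractile genes was tested.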
